A study of Mus musculus with 16 samples.

Results

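Mitochondrial ribosomal protein genes were followed in the hearts of 16 mice, as the 71 genes with a symbol of Mrpl or Mrps and a digit among 22180 genes measured. They were taken from probe sets that list a single gene symbol, averaged per gene, and they comprise 43 Mrpl genes, named for the large subunit of the ribosome, and 28 Mrps genes, named for the small subunit. RefSeq annotates 78 mouse genes with such symbols, and the other 7 (Mrpl30, Mrpl33, Mrpl41, Mrpl43, Mrpl44, Mrpl53 and Mrps6) lay only on probe sets that list several symbols. No pseudogene was among the symbols, and all 71 genes were tested without a filter on low values.

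The mice formed 4 groups of 4, all on a C57Bl/6J background. Wild-type (WT) mice and mice labelled as transgenic Clock delta 19/delta 19 (below, Clock mice) were each given a high-fat diet (HFD) or the control diet labelled SC (below, chow) for 24 weeks. Myocardium was taken at 32 weeks of age, 7 hours into the light phase. CLOCK is a transcription factor of the circadian clock, and the delta 19 allele encodes a protein with poor transcriptional activity; the allele is not restricted to the heart by any statement in the labels. Each heart was read on 1 array. Values were deposited on a log scale as distances from the median of the probe set, so that 0 is a gene's middle array, and neither the abundance of a transcript nor the presence of a cell type can be read from them. Base 2 and a positive sign for more transcript were assumed, since the sources name neither.

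Mitochondria carry their own ribosome, which translates the messages of mitochondrial DNA into core subunits of the respiratory chain and ATP synthase. Its RNAs are made in the mitochondrion, whereas all of its proteins are encoded in the nucleus and imported. The heart, which relies on oxidative phosphorylation, is rich in mitochondria. Many of the proteins have a counterpart in bacterial ribosomes, and the rest were added in the mitochondrial lineage. A symbol does not always give the place in the ribosome: Mrps18a and Mrps30 encode proteins of the large subunit, and the product of Mrps36 is known as a subunit of the alpha-ketoglutarate dehydrogenase complex.

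The promoters of 4 genes on which the results turn are printed first, because the design asks about a transcription factor that binds DNA at E-boxes. Each is RefSeq's window of 300 bases on GRCm38.p6, from 250 bases before the annotated start to 50 after it, read along the strand of the gene. Mrps23 lies at chr11:88204138-88204437 (plus strand), Mrps18a at chr17:46110754-46111053 (plus strand), Mrpl37 at chr4:107066817-107067116 (minus strand) and Mrps15 at chr4:126046678-126046977 (plus strand). Capitals mark matches to any of 5 motifs searched on both strands: the E-box CACGTG, the D-box TTATGTAA, an ETS site CCGGAAGT, the palindromic NRF1 site and a YY1 site AAGATGGC, none of which contains another.
Mrps23: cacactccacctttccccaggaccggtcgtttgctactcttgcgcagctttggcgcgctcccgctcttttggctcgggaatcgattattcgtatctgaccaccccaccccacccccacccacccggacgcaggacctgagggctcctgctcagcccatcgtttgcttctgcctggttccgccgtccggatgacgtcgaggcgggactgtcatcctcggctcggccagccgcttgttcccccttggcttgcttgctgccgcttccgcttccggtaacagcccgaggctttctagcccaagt
Mrps18a: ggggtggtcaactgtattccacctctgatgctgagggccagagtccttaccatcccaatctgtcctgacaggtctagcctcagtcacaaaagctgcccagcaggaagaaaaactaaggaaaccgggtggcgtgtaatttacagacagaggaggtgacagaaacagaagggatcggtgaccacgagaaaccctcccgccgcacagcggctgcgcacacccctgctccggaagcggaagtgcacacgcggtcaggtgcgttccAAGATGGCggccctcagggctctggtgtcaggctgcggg
Mrpl37: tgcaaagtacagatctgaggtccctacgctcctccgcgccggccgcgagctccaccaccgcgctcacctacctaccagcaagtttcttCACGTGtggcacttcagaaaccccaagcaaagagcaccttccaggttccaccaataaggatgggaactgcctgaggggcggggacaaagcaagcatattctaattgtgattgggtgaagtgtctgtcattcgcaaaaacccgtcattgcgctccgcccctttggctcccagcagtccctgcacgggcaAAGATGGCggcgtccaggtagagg
Mrps15: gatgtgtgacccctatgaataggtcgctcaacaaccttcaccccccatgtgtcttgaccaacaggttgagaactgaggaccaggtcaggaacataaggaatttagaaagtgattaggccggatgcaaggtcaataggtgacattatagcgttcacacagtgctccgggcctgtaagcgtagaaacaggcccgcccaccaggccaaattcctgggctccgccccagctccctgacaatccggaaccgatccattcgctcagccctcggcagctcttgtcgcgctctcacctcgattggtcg
The Mrpl37 window holds an E-box at position -162 from the start and a YY1 motif that begins 26 bases after it, and the Mrps18a window holds a YY1 motif that begins 11 bases after the start. None of the 5 motifs was found in the windows of Mrps23 and Mrps15. No window was given for Mrps34, which is taken up below. Windows were given for 62 of the 71 genes. Among these the E-box was present in 5 (8.06%, against 8.09% of all 27025 genes with a window), and the D-box in 0 against 1.11%. The YY1 motif was present in 12 (19.4%, against 3.19% of all genes), the ETS motif in 10 (16.1% against 4.31%) and the NRF1 motif in 3 (4.84% against 1.07%). Over the 16918 genes with a window that the arrays measured, the E-box was present in 9.22% and the D-box in 1.01%. There the YY1 motif was present in 3.65%, the ETS motif in 5.64% and the NRF1 motif in 1.5%. A match is a run of letters in these windows and does not show that a factor binds there.

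The arrays had medians between -0.00154 and 0.00281 and standard deviations between 0.111 and 0.159. Dbp, a target of CLOCK, lay between 0.37 and 2.45 on the 8 WT arrays and between -0.62 and -0.37 on the 8 Clock arrays, so each heart fell on the side of its labelled genotype. The probe set for Clock itself does not separate a mutated from an intact transcript. Differences below are on the log2 scale, ± the standard error of a limma fit across all genes, and a gene is said to have risen or fallen where its Benjamini-Hochberg adjusted p over all 22180 genes was under 0.05. Nothing in the labels says whether the mice of a group shared a cage or litter.

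The mean over the 71 genes was highest in Clock hearts on HFD. It was 0.051, 0.067, 0.031 and 0.064 in the 4 Clock hearts on HFD and -0.010, -0.058, -0.063 and -0.010 in the 4 WT hearts on HFD. All Clock hearts on HFD therefore lay above all WT hearts on that diet. On chow the mean was 0.014, 0.039, 0.030 and -0.086 in Clock hearts and 0.030, -0.095, -0.033 and -0.052 in WT hearts, and these groups overlapped. The lowest arrays of all were WT chow replicate 2 and Clock chow replicate 4. The markers of cardiomyocytes were also low on both (-0.083 and -0.084, mean of 11 genes), as were 75 subunits of the respiratory chain (-0.10 and -0.061). Array standard deviations were 0.159 and 0.141 there, against 0.148 on WT chow replicate 4 and 0.143 on WT HFD replicate 1. A fit of array weights gave Clock chow replicate 4 the lowest weight of the 16 (0.656). WT chow replicate 4 had a weight of 0.748 and WT chow replicate 2 of 0.860.

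Genes of both subunits were higher in Clock than in WT hearts on HFD. Mrpl genes had a mean of 0.051 ± 0.014 (SD, n = 4) in Clock hearts on HFD against -0.035 ± 0.025 in WT hearts on HFD, and Mrps genes 0.057 ± 0.025 against -0.037 ± 0.044. On chow, Mrpl genes had -0.0016 ± 0.067 in Clock and -0.043 ± 0.056 in WT hearts, and Mrps genes 0.0012 ± 0.046 and -0.029 ± 0.047. The difference between the mean of the Mrpl genes and the mean of the Mrps genes stayed small in every group: -0.014 ± 0.010 in WT chow, 0.0015 ± 0.034 in WT HFD, -0.0028 ± 0.028 in Clock chow and -0.0063 ± 0.020 in Clock HFD hearts. The values of the mice ran from -0.039 to 0.041 in WT HFD hearts and from -0.028 to -0.0052 in WT chow hearts, and all 4 groups overlapped.

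**Figure D1:**
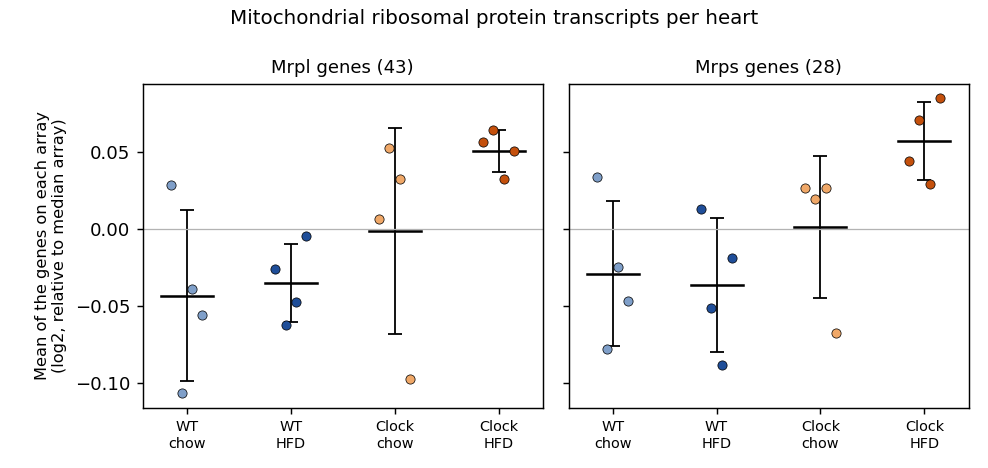
Mean of the 43 Mrpl genes (left) and of the 28 Mrps genes (right) on each array, in log2 units relative to the median array, for the 4 groups. Each point is 1 heart, horizontal lines are group means and bars are SD (n = 4). In both panels all 4 Clock hearts on HFD lie above all 4 WT hearts on HFD, while the chow groups overlap.

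On HFD, 60 of the 71 genes (84.5%) were higher in Clock than in WT hearts, against 50.2% of all genes, with a median difference of 0.079 against a median near 0 for all genes. Mrps23, Mrps18a and Mrps34 rose and none fell. Over all genes 1.9% passed the test in this comparison, 1.13% as higher and 0.771% as lower, and 3 of 71 genes is 4.23%. At an unadjusted p under 0.05, 17 were higher and 0 lower, where 7.6% of all genes were higher and 5.87% lower. In 10 of the 71 all 4 Clock hearts lay above all 4 WT hearts, against 5.09% of all genes, and in 0 the reverse, against 3.8%. These 10 were the 3 genes that rose and Mrpl37, Mrpl2, Mrps27, Mrps12, Mrps26, Mrps14 and Mrpl24, of which Mrpl37 had adjusted p = 0.0641 and the other 6 had adjusted p between 0.147 and 0.508.

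Mrps23 encodes a protein of the small subunit that bacterial ribosomes lack. On HFD it was at 0.24, 0.29, 0.26 and 0.18 in Clock hearts and at -0.14, -0.21, -0.19 and 0.023 in WT hearts. Every Clock heart was higher than every WT heart, and the gene rose by 0.37 ± 0.07 (1.29-fold, adjusted p = 0.0107). On chow it was at 0.053, 0.11, 0.27 and -0.074 in Clock hearts and at -0.023, -0.25, -0.12 and -0.083 in WT hearts. Here Clock chow replicate 4 lay among the WT hearts, and adjusted p was 0.273 for a difference of 0.21 ± 0.07.

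Mrps18a encodes a homologue of the bacterial small-subunit protein S18 that sits in the large subunit of the mitochondrial ribosome. On HFD it was at 0.14, 0.27, 0.30 and 0.13 in Clock hearts and at -0.12, -0.0050, -0.25 and -0.26 in WT hearts. The groups did not overlap, and the gene rose by 0.37 ± 0.08 (1.29-fold, adjusted p = 0.0180). On chow it was at 0.062, -0.0031, 0.0031 and 0.066 in Clock hearts and at 0.034, -0.044, -0.23 and -0.34 in WT hearts. WT chow replicate 1 lay within the Clock hearts, and adjusted p was 0.451 for a difference of 0.18 ± 0.08. Its paralogues Mrps18b and Mrps18c, whose products are in the small subunit, differed by 0.14 ± 0.06 (adjusted p = 0.290) and 0.0041 ± 0.066 (adjusted p = 0.991) on HFD.

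Mrps34 encodes another small-subunit protein without a bacterial counterpart, known to be needed for a stable small subunit. It was at 0.18, 0.17, 0.25 and 0.24 in Clock hearts on HFD and at -0.048, -0.024, -0.016 and -0.076 in WT hearts on HFD. The groups did not overlap, with a rise of 0.25 ± 0.06 (1.19-fold, adjusted p = 0.0246). On chow the hearts overlapped, with 0.091, 0.075, -0.025 and -0.053 in Clock and 0.018, -0.0094, 0.0094 and -0.24 in WT hearts. Mrpl37, a large-subunit protein without a bacterial counterpart, differed by as much on HFD (0.25 ± 0.06) but just missed the threshold (adjusted p = 0.0641), with 0.11, 0.15, -0.028 and 0.022 in Clock and -0.11, -0.32, -0.13 and -0.17 in WT hearts.

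Of the 3 calls on HFD, that of Mrps23 held when each of the 8 arrays was left out in turn, that of Mrps18a in 4 of 8 and that of Mrps34 in 1 of 8. Mrps23 alone passed without Clock HFD replicate 2 (Mrps34 then had adjusted p = 0.0506), without Clock HFD replicate 3 or without WT HFD replicate 3. The shares of all genes that passed there were 1.09%, 1.2% and 1.29%. A further probe set that lists several symbols also covers Mrps34, and with it the difference on HFD was 0.15 (adjusted p = 0.231). The count of 60 higher genes stayed between 58 and 62.

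Other signals moved with the genotype on HFD. Of 10 endothelial markers 9 were higher in Clock hearts and 4 rose (Cldn5, Robo4, Esam and Egfl7), with array means of -0.29 to -0.21 in WT and -0.029 to 0.17 in Clock hearts. Of 11 cardiomyocyte markers 10 were higher and none rose, with array means of -0.068 to -0.010 in WT and 0.0048 to 0.069 in Clock hearts, which like those of the ribosomal protein genes did not overlap. The array means of 75 respiratory chain subunits did not overlap there either, at -0.046 to -0.0080 in WT and 0.0096 to 0.054 in Clock hearts. All 9 fibroblast markers were higher and none rose, with array means of -0.18 to 0.14 in WT and -0.068 to 0.27 in Clock hearts. Higher as well were 5 of 6 smooth muscle and pericyte, 2 of 7 macrophage, 2 of 4 lymphocyte and 0 of 5 adipocyte markers. None of these passed. Of 25 immediate early genes, which respond within minutes to stress and handling, 23 were higher, with array means of -0.65 to 0.048 in WT and -0.42 to 0.39 in Clock hearts. Among them Egr2 rose by 0.47 ± 0.09 (adjusted p = 0.0140) and Ier3 fell (-0.64 ± 0.11, adjusted p = 0.00539). With the mean of the immediate early genes as a covariate, Mrps23 was the only member that passed, while Mrps18a had 0.31 (adjusted p = 0.0861) and Mrps34 (0.23) missed the threshold as well, and 64 genes were higher. In that fit 1.26% of all genes passed. The part of the cell type markers in these results was not tested, and in bulk heart fewer cells of a type and less RNA per cell cannot be told apart.

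On chow, 49 of the 71 genes (69.0%) were higher in Clock hearts, against 49.8% of all genes, with a median difference of 0.045. None rose or fell, where 0.491% of all genes passed, and at an unadjusted p under 0.05 limma gave 6 higher and 3 lower, against 5.43% and 4.34% of all genes. The smallest p belonged to Mrpl39, a large-subunit protein without a bacterial counterpart, at -0.14 ± 0.05 (adjusted p = 0.272), followed by Mrps23 and by Mrpl10, a protein at the base of the stalk that recruits translation factors, at 0.13 ± 0.05 (adjusted p = 0.339). Both groups of 4 were apart in 3 genes: Mrpl10 and Mrpl47 were higher in every Clock heart and Mrps15 lower, against 2.58% of all genes higher and 2.38% lower. The shift on chow depended on WT chow replicates 2 and 4, the WT chow hearts with the lowest means over the members (-0.095 and -0.052). Without both, 34 of 71 genes were higher and the median was -0.0043. That fit took out low WT hearts only and kept Clock chow replicate 4 (-0.086). No fit left out low arrays of both genotypes. Leaving out 1 array moved the median between 0.021 (without WT chow replicate 2) and 0.081 (without Clock chow replicate 4). All 10 endothelial and all 9 fibroblast markers were higher in Clock hearts on chow, none past the threshold, and their part in the shift was not tested.

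The genotype differences on the 2 diets share no array. Of the 71 genes, 43 (60.6%) were higher in Clock hearts on both diets, against 30.1% of all genes, and 5 were lower on both. These shares start unlike: 69.0% of members were higher on chow and 84.5% on HFD, against 49.8% and 50.2% of all genes. Agreement gene by gene therefore cannot be read from them. A further 17 were lower on chow and higher on HFD, and 6 the reverse. Across the 71 genes the size of the difference on chow and on HFD correlated weakly (Pearson's r = 0.25, a description over genes, which are not independent), against 0.52 over all genes. Differences ran from -0.14 to 0.21 on chow and -0.11 to 0.37 on HFD in the 71 genes. Over all genes they ran from -2.05 to 1.16 and from -2.73 to 2.17. With ranges so unlike, the 2 values of r cannot be compared.

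**Figure D2:**
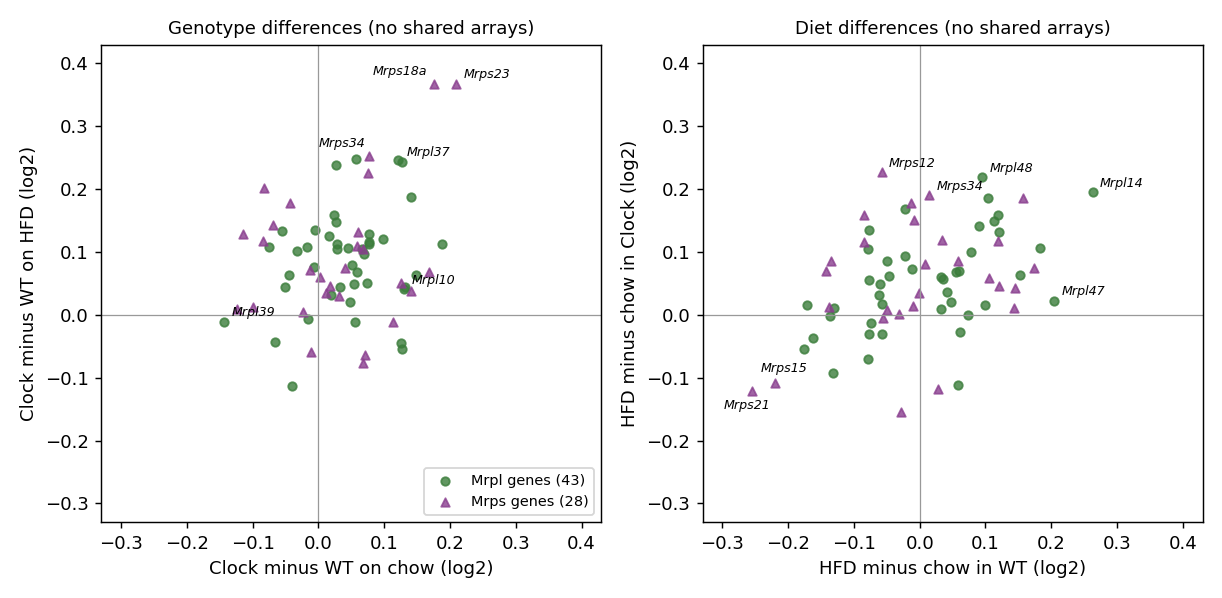
Left, the Clock minus WT difference of each of the 71 genes on chow (x axis) and on HFD (y axis). Right, the HFD minus chow difference in WT (x axis) and in Clock hearts (y axis), all in log2 units. Circles are Mrpl genes and triangles Mrps genes, and the 2 axes of a panel use no common array. On the left most points lie above 0 on the y axis, led by Mrps23 and Mrps18a at 0.37. On the right Mrps15 and Mrps21 lie lowest on the x axis and Mrpl14 lies farthest right.

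Averaged over both diets, 61 of the 71 genes (85.9%) were higher in Clock hearts, against 49% of all genes, and the median was 0.063. Mrps23 (0.29 ± 0.05, adjusted p = 0.00295), Mrps18a (0.27 ± 0.05, adjusted p = 0.00785), Mrps34 (0.17 ± 0.04, adjusted p = 0.0250) and Mrpl37 (0.18 ± 0.05, adjusted p = 0.0310) rose, and none fell. Over all genes 3.88% passed this comparison, 2.44% as higher and 1.44% as lower. At an unadjusted p under 0.05, 16 members were higher and 1 lower, against 9.54% and 6.95% of all genes. In 0 members were all 8 Clock hearts apart from all 8 WT hearts, which held in 0.419% of all genes for higher and 0.311% for lower values. By name, 38 of 43 Mrpl and 23 of 28 Mrps genes were higher. Mrpl46 (0.18 ± 0.08, adjusted p = 0.237) and Mrpl57 (0.16 ± 0.07, adjusted p = 0.226), both without bacterial counterparts, were the other high Mrpl genes. Lowest were Mrpl39 (-0.077 ± 0.034) and Mrpl1 (-0.076 ± 0.050), the latter a protein of the mobile stalk near the exit site for tRNA, neither of which passed. Mrps23 and Mrps18a kept their calls in 16 of 16 fits without 1 array, Mrps34 in 12 and Mrpl37 in 11. When Clock chow replicate 1 was left out, or WT chow replicates 2 and 4 jointly, Mrps23 and Mrps18a were the 2 members that passed. Of all genes 3.03% and 2.29% passed in these fits. Mrps34 also missed the threshold with the immediate early genes as a covariate (0.15, adjusted p = 0.0650), which left 3 members, and with its further probe set (0.13, adjusted p = 0.0948). In the same average all 10 endothelial markers were higher in Clock hearts and 6 rose, by most in Cldn5, Robo4, Esam and Tek. All 9 fibroblast markers were higher and 4 rose (Col1a1, Gsn, Lum and Postn). Of 11 cardiomyocyte markers 9 were higher, and Ryr2 rose by 0.17 ± 0.03 (adjusted p = 0.00699). The part of these markers in the result was not tested. Of 25 immediate early genes 22 were higher. Egr2 rose by 0.30 ± 0.07 (adjusted p = 0.0160) and Ier3 fell (-0.40 ± 0.08, adjusted p = 0.00783).

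**Figure D3:**
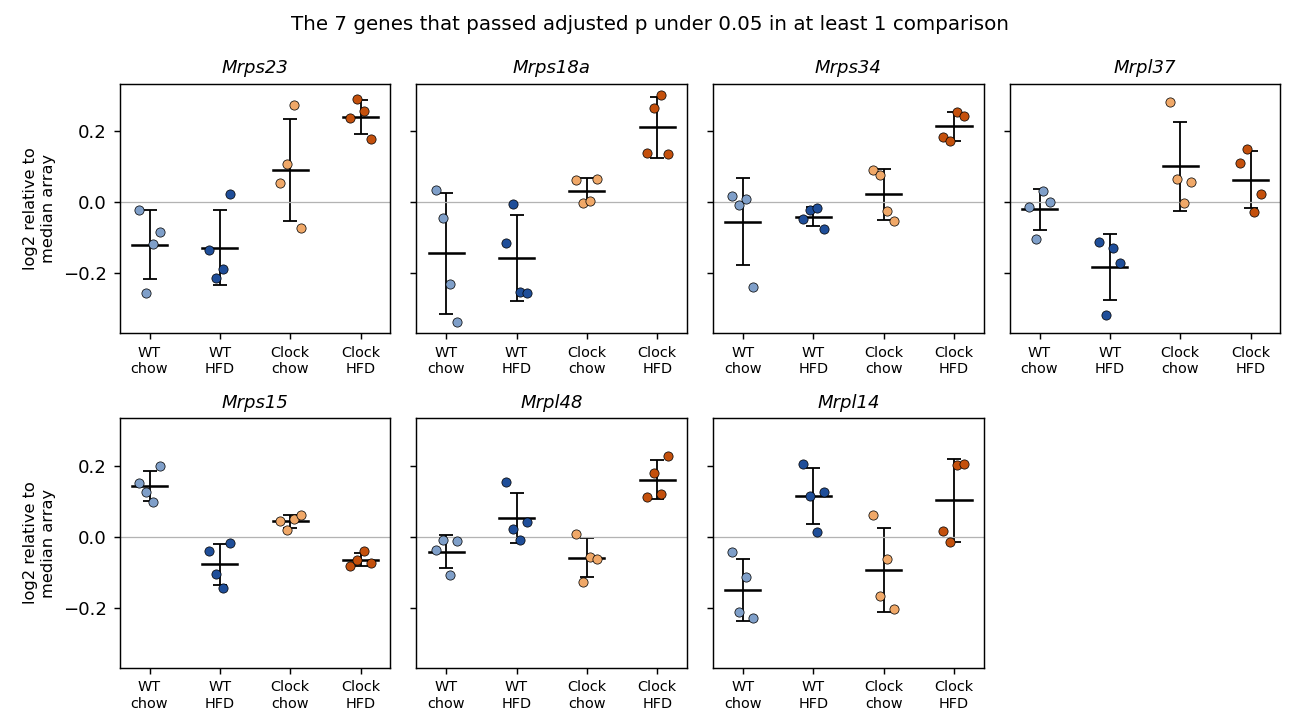
Values of the 7 genes that passed adjusted p under 0.05 in at least 1 comparison, in log2 units relative to the median array. Each point is 1 heart, horizontal lines are group means and bars are SD (n = 4). Mrps23, Mrps18a and Mrps34 are highest in Clock hearts on HFD, Mrpl37 is lowest in WT hearts on HFD, and Mrps15 is lower in all 8 hearts on HFD than in all 8 on chow.

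In WT hearts, HFD did not shift the genes in a common direction: 34 of 71 (47.9%) were higher on HFD, against 48.8% of all genes, with a median of -0.0083. The sign of that median turned without any of WT HFD replicates 2, 3 and 4 or WT chow replicates 1 and 4, reaching 0.024 without WT chow replicate 1. It was -0.032 without WT chow replicate 2, with 31 genes higher, and -0.040 when the pair of WT chow replicates 2 and 4 was left out, with 27 higher. Mrps15 fell and no gene rose, where 0.352% of all genes passed, 0.185% as higher and 0.167% as lower. At an unadjusted p under 0.05, 5 were higher and 6 lower, against 5.55% and 5.1% of all genes. Mrps15 encodes the counterpart of bacterial S15, which binds the RNA of the small subunit. It was at -0.040, -0.11, -0.14 and -0.018 in WT hearts on HFD and at 0.15, 0.12, 0.097 and 0.20 in WT hearts on chow. The groups lay clearly apart, with a fall of 0.22 ± 0.04 (1.16-fold, adjusted p = 0.0221).

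The call of Mrps15 in WT hearts held in 4 of 8 fits without 1 array, and ended when WT HFD replicate 2 or 3 or WT chow replicate 1 or 4 was left out, with adjusted p up to 0.0774. In a fit of only the 8 WT arrays its adjusted p was 0.175, and with WT chow replicates 2 and 4 both left out it was 0.159. Next by p were Mrpl47, the counterpart of bacterial L29 near the exit of the peptide tunnel (0.20 ± 0.05, adjusted p = 0.114), and Mrpl14, a protein of the face that meets the small subunit (0.26 ± 0.07, adjusted p = 0.121). Mrps21, counterpart of bacterial S21, was the lowest at -0.25 ± 0.07 (adjusted p = 0.124). In 3 genes all HFD hearts were higher (Mrpl14, Mrpl47 and Mrpl48) and in 3 all were lower (Mrps15, Mrps21 and Mrpl37), against 2.8% and 2.5% of all genes. With the diet in WT hearts 0 of 10 endothelial markers and 3 of 25 immediate early genes were higher, and Cldn5 fell by 0.81 ± 0.17 (adjusted p = 0.0482). Egr2, an immediate early gene, fell as well (-0.49 ± 0.09, adjusted p = 0.0341). All 9 fibroblast markers were higher on HFD, as were 3 of 11 cardiomyocyte and 1 of 7 macrophage markers, and none of these passed. The part of the cell type markers was not tested. With the immediate early genes as a covariate Mrps15 was at -0.24 (adjusted p = 0.0709).

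In Clock hearts, 55 of 71 genes (77.5%) were higher on HFD, against 50% of all genes, with a median of 0.058. None rose or fell, where 0.0902% of all genes passed, and at an unadjusted p under 0.05 limma gave 11 higher and 1 lower, against 4.63% and 3.79% of all genes. All HFD hearts were above all chow hearts in 6 genes and below them in 1, against 2.89% and 2.42%. Mrpl48, a protein of the central protuberance of the large subunit, was at 0.11, 0.18, 0.12 and 0.23 on HFD and at 0.0088, -0.13, -0.058 and -0.062 on chow. Those groups did not overlap, and the difference was 0.22 ± 0.05 (adjusted p = 0.0912). Mrps34 (0.19 ± 0.06, adjusted p = 0.277) and Mrps26 (0.16 ± 0.05, adjusted p = 0.312), a small-subunit protein without a bacterial counterpart, followed. Without Clock chow replicate 4, 44 genes were higher and the median was 0.019. In this comparison 8 of 11 cardiomyocyte, 4 of 10 endothelial, 6 of 9 fibroblast and 0 of 7 macrophage markers were higher on HFD. So were 7 of 25 immediate early genes, and no gene of these lists passed. With the immediate early genes as a covariate 50 of the 71 genes were higher with a median of 0.046, and the part of the cell type markers was not tested.

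Mrps15 was lower on HFD in Clock hearts too, by -0.11 ± 0.04 (adjusted p = 0.404), with -0.082, -0.066, -0.039 and -0.073 on HFD against 0.046, 0.018, 0.051 and 0.061 on chow. Over both genotypes its 8 hearts on HFD, at -0.018 or below, were all lower than its 8 hearts on chow, at 0.018 or above, a separation found in that direction in 0.149% of all genes. Averaged over the genotypes it fell by 0.16 ± 0.03 (adjusted p = 0.00681), a call kept in 16 of 16 fits without 1 array. Its spread within groups was the smallest of the Mrps genes, with a pooled SD of 0.0383 against a median of 0.103 for the Mrps genes.

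Mrpl48 and Mrpl14 rose in the diet average, by 0.16 ± 0.03 (adjusted p = 0.0250) and 0.23 ± 0.05 (adjusted p = 0.0266), and 1.54% of all genes passed this comparison, 0.812% as higher and 0.726% as lower. Mrpl14 was at 0.20, 0.11, 0.014 and 0.13 in WT hearts on HFD and at -0.043, -0.21, -0.11 and -0.23 in WT hearts on chow. In Clock hearts it was at 0.018, -0.014, 0.20 and 0.20 on HFD and at 0.061, -0.17, -0.062 and -0.20 on chow. The WT groups were apart and the Clock groups overlapped through Clock chow replicate 1. Mrps10 (0.17 ± 0.05, adjusted p = 0.136) and Mrpl13 (0.14 ± 0.06, adjusted p = 0.261) were the next highest. Mrps21 was the lowest member (-0.19 ± 0.05, adjusted p = 0.0613), and Mrpl34 (-0.12 ± 0.05, adjusted p = 0.277) and Mrpl4 (-0.11 ± 0.05, adjusted p = 0.292) followed Mrps15.

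The diet average was less even than the genotype average: 46 of 71 genes (64.8%) were higher on HFD, against 48.9% of all genes, with a median of 0.034, and at an unadjusted p under 0.05, 12 were higher and 5 lower against 7.25% and 5.96%. Of the 71, 30 were higher on HFD in both genotypes, 12 lower in both, 25 lower in WT and higher in Clock hearts, and 4 the reverse. The median was 0.014 without WT chow replicate 2 and 0.018 without WT chow replicate 3. It was 0.013 without the pair of WT chow replicates 2 and 4, and 0.014 with the immediate early genes as a covariate, with 43 genes higher in each. Without Clock chow replicate 4, 39 genes were higher and the median was 0.021. In the diet average 0 of 10 endothelial markers were higher and 3 fell (Kdr, Emcn and Egfl7), while all 9 fibroblast markers were higher and Postn rose. Of 11 cardiomyocyte markers 4 were higher, and Ryr2 rose by 0.15 ± 0.03 (adjusted p = 0.0335). The part of these markers was not tested. Of 25 immediate early genes 4 were higher, and Egr2 fell (-0.32 ± 0.07, adjusted p = 0.0232). Mrpl48 kept its call in 13 of 16 fits without 1 array and Mrpl14 in 8. Mrps15 was the only member that passed when Clock HFD replicate 4, Clock chow replicate 2, or the pair of WT chow replicates 2 and 4 was left out, or with the immediate early genes as a covariate. In that order, 0.983%, 1.13%, 0.636% and 0.491% of all genes passed in these fits.

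The test of whether the genotypes responded differently to the diet, the interaction, passed for no gene on the array (0%). For the 71 genes the interaction was above 0 in 52 (73.2%, against 51.4% of all genes), with a median of 0.047, and at an unadjusted p under 0.05 limma gave 7 higher and 1 lower against 2.53% and 2.52% of all genes. Mrps26 had the smallest p (0.24 ± 0.07, adjusted p = 0.760). It was at 0.063, 0.16, 0.085 and 0.044 in Clock hearts on HFD against -0.14, -0.055, -0.0031 and -0.082 on chow, and at -0.065, 0.039, -0.13 and -0.010 in WT hearts on HFD against 0.12, 0.080, -0.025 and 0.0031 on chow. Clock hearts were thus higher on HFD without overlap, and WT hearts overlapped with a lower mean. Mrps12, the counterpart of bacterial S12 at the decoding site (0.28 ± 0.10, adjusted p = 0.868), and Mrps18b (0.21 ± 0.08, adjusted p = 0.939) followed. The median was 0.018 without Clock chow replicate 4, 0.080 without WT HFD replicate 4 and 0.094 without WT chow replicates 2 and 4.

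Grouped by evolutionary class, a grouping made after the values were seen, 43 genes encode proteins named for the bacterial ribosomal protein whose place they take and 27 encode other proteins of the mitochondrial ribosome. Mrps18a and Mrps18b are counted among the 27, although their products are homologues of bacterial S18. On HFD, 35 of the 43 were higher in Clock hearts with a median of 0.064 and 0 rose, and 24 of the 27 were higher with a median of 0.11 and 3 rose, 1 of them Mrps18a. In the genotype average the 4 genes that rose, Mrps18a included, were among the 27. Over all genes 1.9% passed on HFD, 3.88% in the genotype average and 1.54% in the diet average. Whether the classes differ was not tested. In the diet average Mrps15 and Mrpl14 were among the 43 and Mrpl48 among the 27. With proteins placed by their position in the ribosome in place of their symbol, 38 of 45 large-subunit genes were higher in Clock hearts on HFD with a median of 0.10 and 1 rose, and 21 of 25 small-subunit genes with a median of 0.060 and 2 rose. By symbol the medians were 0.10 for the Mrpl and 0.070 for the Mrps genes, and 0 and 3 rose.

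In the genotype average no stalk or release member passed. Mrpl12, the stalk protein, was at 0.025 ± 0.040 (adjusted p = 0.839), and Mrpl58, a peptidyl-tRNA hydrolase built into the large subunit that rescues stalled ribosomes, at -0.0029 ± 0.033 (adjusted p = 0.983). Mrpl10 was at 0.086 ± 0.034 (adjusted p = 0.207). Of the 71 genes, 9 had 2 probe sets, and these did not always move together. The probe sets of Mrpl10 differed by 0.20 and -0.12 between the genotypes on HFD and those of Mrpl12 by 0.19 and -0.12. Those of Mrps18c differed by -0.21 and 0.16 on chow. The Mrpl47 difference in WT hearts came from 1 of its 2 probe sets (0.39, against 0.017). Opposite signs occurred in 4 of the 9 genes for the genotype on chow, 3 for the genotype on HFD, 2 for the diet in WT and 6 for the diet in Clock hearts. The 7 genes that rose or fell each rest on 1 probe set.

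The other genes of mitochondrial translation were taken from lists chosen with earlier results of these data known. Of 14 measured initiation, elongation, release and activation factors, 12 were higher in Clock hearts on chow, 12 on HFD and 14 in the genotype average, where Lrpprc, which stabilises mitochondrial messages, rose by 0.17 ± 0.04 (adjusted p = 0.0263). In the diet average 13 of the 14 were higher and Mtrf1, a release factor homologue, rose by 0.25 ± 0.05 (adjusted p = 0.0259). Of 19 aminoacyl-tRNA synthetases and amidotransferase subunits, 15 were higher in Clock hearts on HFD. Gatc, a subunit of the glutamyl-tRNA amidotransferase, fell there by 0.43 ± 0.08 (adjusted p = 0.0125), and Hars2, the mitochondrial histidyl-tRNA synthetase, rose in the genotype average by 0.20 ± 0.05 (adjusted p = 0.0351), in which Gatc fell by 0.30 ± 0.06 (adjusted p = 0.00780).

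Of 25 assembly factors of the mitochondrial ribosome, 19 were higher in Clock hearts on HFD and 18 on chow, and none rose or fell in any comparison. Of 15 genes for the upkeep and transcription of mitochondrial DNA, 10 were higher on HFD and 12 on chow, again without a call. Respiratory chain subunits were higher in Clock hearts in 62 of 75 on chow and 54 of 75 on HFD. In the genotype average 61 of the 75 were higher (81.3%, median 0.058), against 61 of the 71 members (85.9%, median 0.063). Cox7a1, the muscle form of a cytochrome c oxidase subunit, rose on HFD by 0.25 ± 0.05 (adjusted p = 0.0122) and in the genotype average by 0.23 ± 0.03, and in the diet average Cox6a1 and Cox6a2 each fell by 0.22 ± 0.05. Among 11 regulators of mitochondrial biogenesis, Ppara, a nuclear receptor that drives fatty acid oxidation, rose in the genotype average by 0.24 ± 0.05 (adjusted p = 0.0160) and no other passed. Proteins of the cytosolic ribosome, which translates nuclear messages, were higher in Clock hearts in 28 of 57 on chow and 35 of 57 on HFD, and none passed in either. In the diet average Rpl30 rose by 0.21 ± 0.05, and Rpl28 and Rpl32 fell by 0.19 ± 0.05 and 0.18 ± 0.04.

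**Figure D4:**
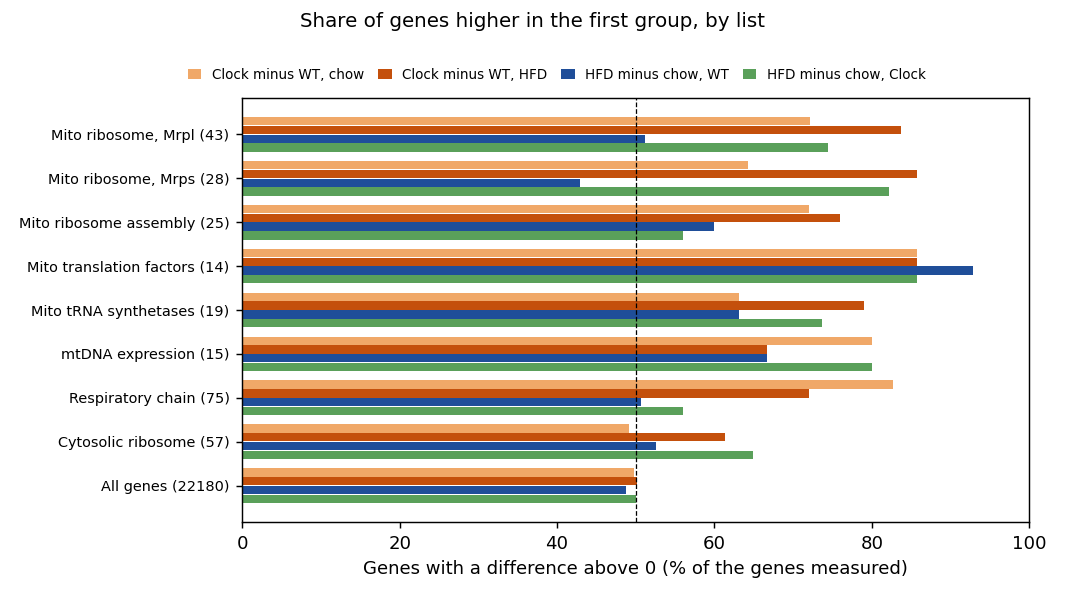
Share of the genes of each list with a difference above 0, as a percentage of the genes measured (number in brackets), for the genotype on chow and on HFD and for the diet in WT and in Clock hearts. The bars are descriptions of lists and carry no test, and the dashed line marks 50%. The Mrpl and Mrps bars for Clock minus WT on HFD reach 83.7% and 85.7%, the cytosolic ribosome 61.4% and all genes 50.2%. Mitochondrial translation factors reach 85.7% there, tRNA synthetases 78.95%, assembly factors 76%, the respiratory chain 72% and mitochondrial DNA expression 66.7%. On chow the respiratory chain reaches 82.7%, the Mrpl genes 72.1% and the Mrps genes 64.3%.

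Within groups the genes varied together to a modest degree. With each group's mean removed, the median correlation over the 2485 pairs of members was 0.17 across the 16 arrays, against 0.0020 for all pairs of genes, 0.22 among respiratory chain subunits and 0.020 among cytosolic ribosomal proteins. Pairs of Mrpl genes (0.18), pairs of Mrps genes (0.18) and mixed pairs (0.17) were alike. All values of an array share its RNA and its normalization, so these correlations describe the arrays. Against the mean of the other members, 66 of 71 genes had a correlation above 0, led by Mrpl19 (0.84), Mrpl51 (0.83) and Mrpl15 (0.81). Mrpl27 (-0.33) and Mrps18c (-0.30) were lowest. Mrps18a, among the genes with the largest genotype difference, had -0.04 and so did not follow the other members from heart to heart within groups. The pooled SD within groups had a median of 0.0986 over the 71 genes and 0.0980 over all genes, with Mrpl36 (0.0333) lowest and Mrpl20 (0.204) highest.

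The genes lie on 17 chromosomes, with 11 on chromosome 11, where Mrps23 is, and 8 on chromosome 17. On chromosome 17 the annotation places Mrpl14, Mrps18a, Mrpl2 and Mrps10 within a stretch of 65 genes. The 43 other measured genes of that stretch had a median genotype average of 0.0045, with 23 above 0 and 1 that passed.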

How the data were processed

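Total RNA of 16 hearts was hybridised to 1 Affymetrix array each. The values deposited by the authors are on a log scale, taken as log2, and are centred on the median of each probe set. Background correction, normalization, software and genome build: not given in the sources used here. Of 34351 probe sets, those with 1 symbol (23521) were averaged per gene, 1814 with several symbols and 9016 with none were left out, and gene IDs were checked against RefSeq (0 symbols changed, 193 unmatched).

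The fit was made in R 4.3.3 with lmFit and eBayes of limma 3.58.1, with a mean for each group and two-sided moderated tests (degrees of freedom: 12 residual, 4.16 prior). Benjamini-Hochberg adjustment covered all 22180 genes, and the threshold was an adjusted p of 0.05. Comparisons were the genotype on each diet, the diet in each genotype, their interaction and both averages. Some comparisons use the same arrays. The number of arrays limits precision. The fit was run on simulated data with independent genes, where recovery was required only for differences larger than that of any member.

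Members and lists were chosen with earlier results of these data known. Genes were named by a rule: members past the threshold or, where fewer than 3 passed, the 3 with the smallest p, the 3 highest and lowest per subunit in the averages, the stalk, S18, Mrpl58 and Mrps12 genes, and up to 4 passing genes of each other list. Others (Mrpl2, Mrps27, Mrps14, Mrpl24, the correlation leaders, the spread extremes and Mrps36) were picked with their values in view. The lists are those the report gives, with smooth muscle, macrophage, lymphocyte and adipocyte markers and 3 measured ribosomal proteins with other symbols, in which no gene passed in any comparison. No erythroid marker had a probe set of its own.

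Other settings were all probe sets, the first probe set of each gene, robust eBayes, array weights, repeated quantile normalization, only the groups compared, a replicate block, an immediate early gene covariate and leaving out arrays. Centred values hold no level, so the planned filter on low values, the highest-mean probe set and a trend in eBayes could not be used. Figures used Python 3.11.15, numpy 2.4.6, pandas 2.3.3 and matplotlib 3.10.9.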

Additional observations from a re-analysis of the deposited data

Results flagged for a closer look

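In 6 of 128 sets of 4 values checked, the gap between 1 heart and its nearest neighbour took up more of the group's range than Dixon's critical value for 4 values allows, and chance gives about 1 in 20 such sets. Clock chow replicate 4 was the heart set apart in the mean of the Mrps genes (0.925 of the range, at -0.067 against 0.019 to 0.026 in the other 3) and in Mrps30 (0.964, at -0.095 against 0.024 to 0.028), whose product is in the large subunit. In the same group, replicate 3 was set apart in Mrpl39 (0.91, at 0.051 against -0.10 to -0.090). WT chow replicate 4 was low in Mrps34 (0.893, at -0.24 against -0.0094 to 0.018). Clock HFD replicate 2 was high in Mrps2 (0.856, at 0.16 against -0.12 to -0.084), and WT HFD replicate 4 was high in the stalk gene Mrpl12 (0.843, at 0.11 against -0.028 to -0.0065). No cause of these values was tested.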

How the results depend on the processing

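Mrps23 kept its calls (HFD and genotype average), and Mrps15 its call in the diet average, in every setting run. Across settings the adjusted p of Mrps23 ranged from 0.00637 to 0.0427 on HFD and from 0.00118 to 0.0194 in the genotype average. With the immediate early gene covariate 1 member passed on HFD (Mrps23), 3 in the genotype average, 0 for the diet in WT hearts and 1 in the diet average (Mrps15). Over all genes 1.26%, 3.37%, 0.0541% and 0.491% passed with it, against 1.9%, 3.88%, 0.352% and 1.54% in the main fit. Without WT chow replicates 2 and 4 together, 0 passed for the diet in WT hearts, 2 in the genotype average and 1 in the diet average. Over all genes 0.0496%, 2.29% and 0.636% passed there. The medians without the pair were -0.0043 for the genotype on chow and 0.094 for the interaction. In a fit of only the WT arrays 0 members passed, and 0.0676% of all genes did. Replicate numbers did not pair the arrays: 24 pairs with the same number correlated between -0.15 and 0.16, with a median of -0.020. With a replicate block in the fit, 0 members passed for the diet in WT hearts (Mrps15, adjusted p = 0.0509), Mrps21 passed in the diet average (adjusted p = 0.0488), and no other call of a member changed. With 1 array of the groups compared left out, members passed as follows: 1 to 3 on HFD (4 without Clock chow replicate 1 or 4, which enter that fit through its spread), 0 to 1 for the diet in WT hearts, 2 to 5 in the genotype average, 1 to 4 in the diet average, and 0 to 0 elsewhere. Of all genes, 1.09% to 1.55% passed on HFD without 1 array of the groups compared, and 0.126% to 0.293% for the diet in WT hearts. The shares were 2.92% to 4.52% in the genotype average and 0.983% to 1.48% in the diet average. Among the genes named by the rule, the genotype average changed sign in Mrps18c and Mrpl58. Between 56 and 63 members were higher in it across settings on the 71 genes, against 61. Mrps18c was at 0.0094 with the covariate and 0.049 without WT chow replicates 2 and 4, and between -0.032 and 0.010 with 1 array left out, where Mrpl58 lay between -0.020 and 0.010. Why these values moved was not tested. Centred values give no signal over background, so it is not known which members are dim.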
